A study of Mus musculus with 2 samples.

Results

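The 63 genes described here were the abundant long intergenic noncoding RNA (lincRNA) genes of the newborn mouse calf muscle. A gene was a member when at least 1 of its transcripts carried the lincRNA type in the annotation and its mean over 2 libraries was 5 TPM or more. TPM is a level scaled for transcript length and library depth. The annotation held 55536 genes, of which 6058 had a lincRNA transcript, so the members made up 1.04% of the lincRNA genes. The imprinted genes H19, Meg3, Rian and Mirg, which passed the same minimum, were left out by rule. Since the members were chosen by their TPM in these libraries, their levels are a description and carry no test.

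The study measured total RNA of gastrocnemius, the large muscle of the calf, by sequencing. There was 1 group of 2 libraries, replicate 1 and replicate 2, from separate numbered male mice of the F1 hybrid strain B6CASTF1/J, a cross of C57BL/6J and CAST/EiJ, each 4 days old. Each library started from 300 ng of RNA of whole tissue and carried ERCC spike-in RNA of a profile named for ribosome-reduced, stranded libraries. There was no treatment, control or second genotype. With 2 libraries an exact two-sided sign-flip test cannot go below p = 0.5, so no p-value is given, and all differences between the libraries are set beside the spread of all genes.

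LincRNAs are transcribed by RNA polymerase II from between protein-coding genes, and most are spliced and capped like messenger RNA. A few act as nuclear scaffolds, such as Malat1 in nuclear speckles and Neat1 in paraspeckles. Others are best known for what lies inside them: small nucleolar RNAs (snoRNAs), which guide the modification of ribosomal RNA and are cut from the introns of host genes, or microRNAs (miRNAs), which repress messenger RNAs through a short seed. In skeletal muscle miR-206 and miR-133b are a well studied pair that shares 1 host locus.

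Members that hold miRNAs are shown first by the mature miRNAs that RefSeq (GRCm38.p6) places on their strand, since several hosts on different chromosomes carry the same seed. Capitals mark the seed, bases 2 to 8. The first group has the let-7 seed and is listed for Mir99ahg on chromosome 16, Lncppara on chromosome 15 and 6720427I07Rik on chromosome 13. A further let-7 gene, Mirlet7a-2, lies in 3110039I08Rik on chromosome 9.
mmu-let-7c-5p (Mir99ahg and Lncppara): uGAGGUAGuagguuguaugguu
mmu-let-7b-5p (Lncppara): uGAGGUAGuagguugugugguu
mmu-let-7d-5p (6720427I07Rik): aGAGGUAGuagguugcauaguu
mmu-let-7f-5p (6720427I07Rik): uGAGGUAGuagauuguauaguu
mmu-let-7a-5p (6720427I07Rik): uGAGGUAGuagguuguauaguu
The second group pairs 3110039I08Rik, which RefSeq names Mir100hg, with Mir99ahg: each holds a miRNA of the miR-99/100 seed and a copy of miR-125b.
mmu-miR-100-5p (3110039I08Rik): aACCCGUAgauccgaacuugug
mmu-miR-99a-5p (Mir99ahg): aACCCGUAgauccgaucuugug
mmu-miR-125b-5p (3110039I08Rik and Mir99ahg): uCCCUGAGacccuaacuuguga
The third group holds the pair inside Dleu2 on chromosome 14, which shares 1 seed, and the muscle pair inside Gm28653 on chromosome 1, which does not.
mmu-miR-16-5p (Dleu2): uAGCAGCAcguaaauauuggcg
mmu-miR-15a-5p (Dleu2): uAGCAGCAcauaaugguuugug
mmu-miR-206-3p (Gm28653): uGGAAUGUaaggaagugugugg
mmu-miR-133b-3p (Gm28653): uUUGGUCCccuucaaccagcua

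A further sequence bears on what 1 member is. Gm27000 (chrX:88759471-88760312, minus strand, mm10, 842 bases in 1 transcript) aligned over its whole length to the transcript Meg3-207 of the imprinted gene Meg3 on chromosome 12, with 99.881% identity. The 81 bases around the 1 mismatch, bases 122 to 202 of each GENCODE M21 transcript, differ at the base in capitals.
Gm27000-201: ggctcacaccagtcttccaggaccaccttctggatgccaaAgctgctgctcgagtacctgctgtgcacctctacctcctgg
Meg3-207: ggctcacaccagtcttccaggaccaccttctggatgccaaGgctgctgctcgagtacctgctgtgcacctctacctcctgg
Gm27000 and Meg3 had the same read-assignment SD, the uncertainty of dividing shared reads, of 111.75 counts in replicate 1 and 109.57 counts in replicate 2. The name "outside imprinted loci" therefore does not cover every member by position or by reads. Gm26945 (chr12:109640341-109642351) lies within the span of Rian on the same strand, and B830012L14Rik (chr12:109695586-109702587) lies between Rian and Mirg. The rule removed imprinted genes by name, and these 3 stayed in.

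Total expected counts in annotated genes were 35281187 in replicate 1 and 32301531 in replicate 2, and the libraries were scaled to each other by TMM. Fast skeletal muscle markers (Acta1, Ckm, Tnnt3 and 5 others, 8 of 8 detected) summed to 49070 TPM in replicate 1 and 44510 TPM in replicate 2, so the labelled tissue showed its defining genes. All 8 were higher in replicate 1, with a median log2 ratio of 0.23. Epidermis markers stood far apart: 12.2 TPM in replicate 1 and 1047 TPM in replicate 2, with 10 of 10 higher in replicate 2 and none at 0. The 5 Schwann cell markers summed to 324 TPM in replicate 1 and 732 TPM in replicate 2. In bulk tissue fewer cells of a type and less RNA per cell cannot be told apart, and with 1 library per animal the animal, the dissection and the library preparation cannot be told apart either.

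The members summed to 22726.8 TPM in replicate 1 and 21737.5 TPM in replicate 2, a mean of 22232 ± 700 TPM (SD, n = 2). They held 4.08% and 4.02% of all counts in annotated genes in replicates 1 and 2, and 66.1% of the counts of all lincRNA genes. The sum rested on a few genes. The 4 highest members held 3.90% of all counts in replicate 1 and 3.84% in replicate 2, and the other 59 members together held 0.175% and 0.172%. The median member was at 12.90 TPM (replicate 1) and 11.96 TPM (replicate 2). By mean TPM, 5 members were over 100 and 4 of these over 1000, 32 were between 10 and 100, and 26 were under 10, while 3891 of the 6058 lincRNA genes had no count in either library.

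**Figure D1:**
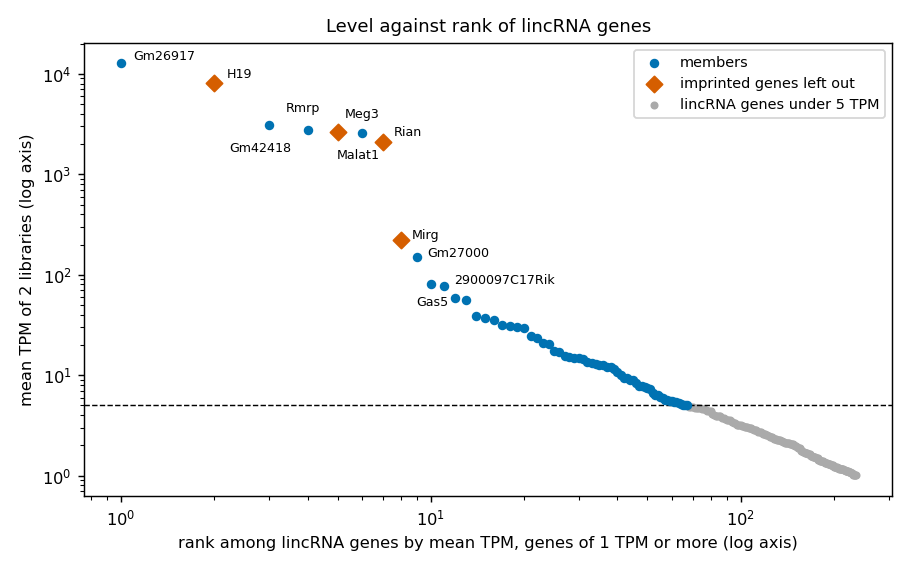
Mean TPM of 2 libraries (log axis) against rank (log axis) for the 235 lincRNA genes of 1 TPM or more; circles in blue are members, diamonds are the 4 imprinted genes left out, grey circles are lincRNA genes under 5 TPM, and the dashed line is 5 TPM. Levels fall from 12719 TPM at rank 1 without a gap at the minimum, and 4 members lie over 1000 TPM.

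The minimum of 5 TPM cut through a continuous range. Just inside it were 1700012D14Rik at 5.40 and 4.72 TPM, Gm12688 at 5.11 and 5.0 TPM, and E430024I08Rik at 5.05 and 5.04 TPM in replicates 1 and 2. Just outside were AU020206 at 4.75 and 4.96 TPM, Gm44386 at 5.90 and 3.78 TPM, and 2900079G21Rik at 4.50 and 5.12 TPM. Of the 63 members, 57 were at 5 TPM or more in both libraries. The rule acted on the mean, so the 6 others had 1 library under 5.

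The 2 highest members came from a stretch of chromosome 17 beside an annotated copy of 18S ribosomal RNA, the RNA of the small ribosomal subunit. Gm26917 (chr17:39843013-39846341, plus strand) had 12918 TPM in replicate 1 and 12519 TPM in replicate 2, which placed it at rank 7 of all annotated genes in each library. Gm42418 (chr17:39846958-39848788, plus strand) had 3107 TPM in replicate 1 and 3027 TPM in replicate 2. Both were close to equal between the libraries, with log2 ratios of 0.07 and 0.06.

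RefSeq lists the 18S pseudogene Rn18s-rs5 at chr17:39846354-39848202 on the same strand and gives Gm42418 as a synonym of it. Gm42418 shares 1245 bases with that entry, 68.0% of its span, and Gm26917 ends 12 bases before it. Together the 2 genes held 3.22% of all counts in replicate 1 and 3.17% in replicate 2, and 52.1% of all lincRNA counts. Without them the remaining 61 members held 0.864% of counts in replicate 1 and 0.843% in replicate 2. Gm42418 also overlaps exons of AY036118 and CT010467.1 on the opposite strand. Its read-assignment SD was 0 in both libraries, so its counts were not divided with those genes. The labels do not say whether strand was used in counting, and the share of these counts that came from ribosomal RNA itself was not tested.

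Rmrp is the RNA of RNase MRP, an enzyme that processes ribosomal RNA precursors. The annotation holds it under 2 gene IDs at 1 place on chromosome 4, one typed lincRNA (281 bases, the member) and one typed ribozyme. The member had 2960 TPM in replicate 1 and 2532 TPM in replicate 2. The ribozyme ID had 5039 TPM in replicate 1 and 5032 TPM in replicate 2. Both IDs carried the same read-assignment SD, 526 counts in replicate 1 and 470 counts in replicate 2, so the reads were divided between them. The member's log2 ratio of 0.25 stood beside 0.02 for the ribozyme ID. The level of the lincRNA ID alone is uncertain for that reason, and the gene also overlaps exons of Ccdc107 on the opposite strand. By the quantification made directly from reads both IDs were listed at 0 in both libraries.

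The nuclear RNAs Malat1 and Neat1 lie on the minus strand of chromosome 19, Malat1 at chr19:5795690-5802672 and Neat1 at chr19:5824708-5845478. Malat1, a nuclear speckle RNA, had 2556 TPM in replicate 1 and 2546 TPM in replicate 2, with 227152 and 204163 counts. Neat1, the scaffold of paraspeckles, had 33.05 TPM in replicate 1 and 29.15 TPM in replicate 2. Its TPM was higher in replicate 1 while its scaled count was higher in replicate 2 (log2 ratio -0.15, 95% counting interval -0.20 to -0.10).

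The opposite signs for Neat1 went with its transcripts, which differ in length. The long transcript Neat1-201 (20771 bases, unspliced), the form that paraspeckles need, held 22.1% of the gene's TPM in replicate 1 and 32.5% in replicate 2. The short Neat1-202 (3004 bases) held 74.7% in replicate 1 and 64.2% in replicate 2. In counts, Neat1-201 had 4409 in replicate 1 and 5344 in replicate 2, against 2098 and 1483 for Neat1-202. The quantification made directly from reads gave the long form 23.4% in replicate 1 and 36.0% in replicate 2, so both methods put its share higher in replicate 2. They used the same reads, and with 1 library per animal the difference has no replicate check.

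**Figure D2:**
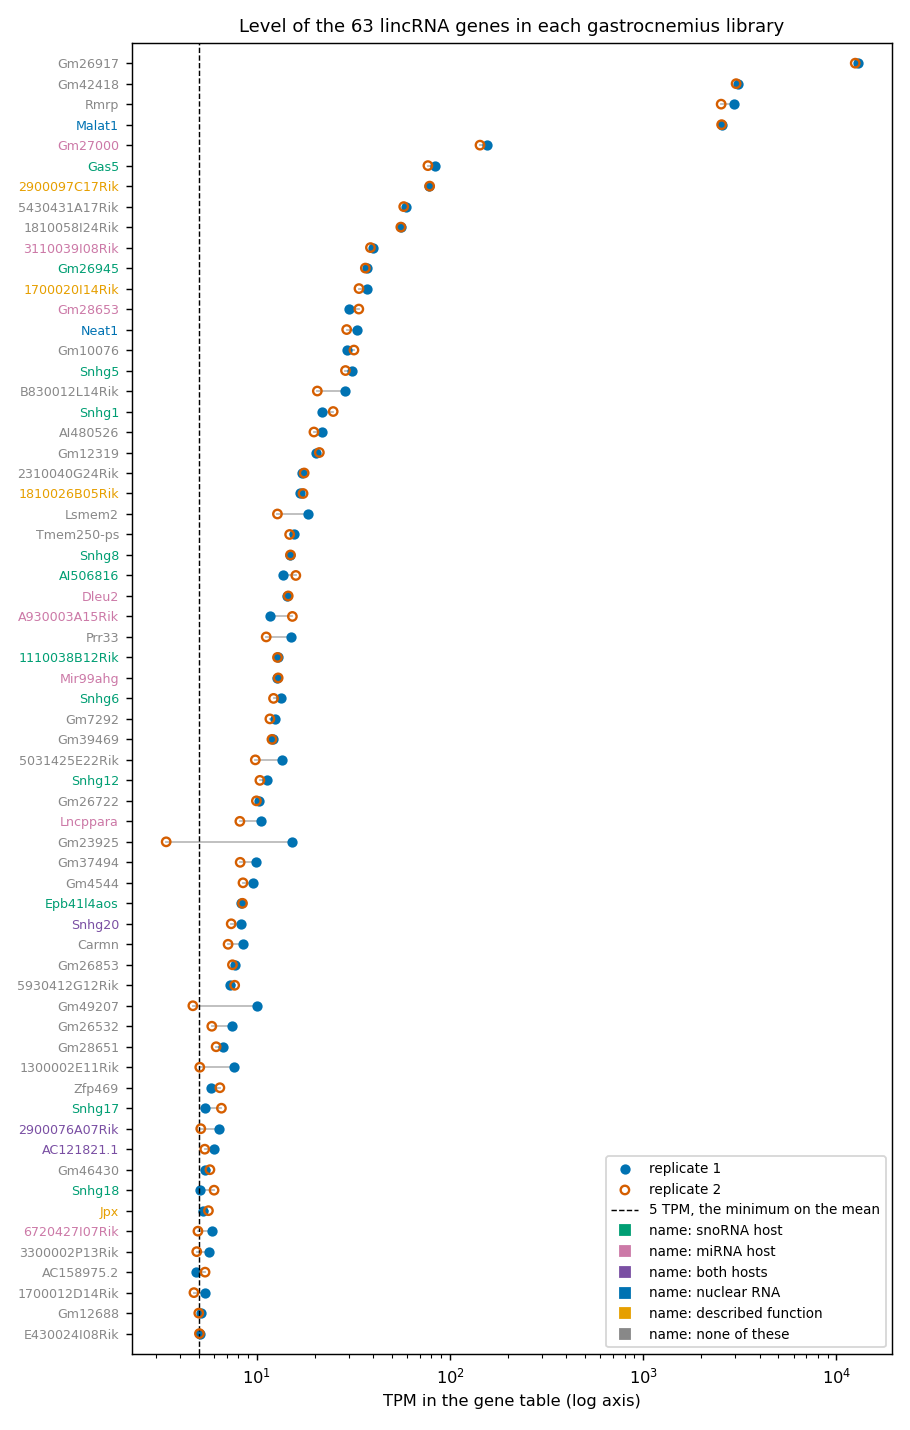
TPM (log axis) of all 63 members, ordered by mean, in replicate 1 (filled circles) and replicate 2 (open circles), with lines joining a gene's libraries and the colour of the name giving its role list. The circles of most members touch, and the widest lines belong to Gm23925 (15.23 and 3.39 TPM in replicates 1 and 2) and Gm49207 (10.02 and 4.66 TPM).

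The snoRNA hosts made up 15 of the 63 members, from 5.54 TPM for Snhg18 to 80.38 TPM for Gas5 by mean. Gas5, named for its rise in growth-arrested cells and holding 10 annotated snoRNA genes, had 83.98 TPM in replicate 1 and 76.78 TPM in replicate 2. Snhg5 had 30.95 TPM in replicate 1 and 28.74 TPM in replicate 2. Snhg1 had 21.77 TPM in replicate 1 and 24.82 TPM in replicate 2. Gas5 stood above all other hosts in both libraries.

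Gm26945, within the Rian span, came between Gas5 and Snhg5 with 37.26 TPM in replicate 1 and 36.42 TPM in replicate 2. Snhg8 had 14.82 and 14.92 TPM, AI506816 had 13.57 and 15.90 TPM, and 1110038B12Rik had 12.90 and 12.78 TPM in replicates 1 and 2. Snhg6 had 13.33 and 12.19 TPM, and Snhg12 had 11.29 and 10.36 TPM. The values of AI506816 enclosed those of Snhg8, and the values of Snhg6 enclosed those of 1110038B12Rik, so neither pair can be ordered.

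The lowest hosts were Epb41l4aos at 8.29 and 8.42 TPM, Snhg20 at 8.28 and 7.36 TPM, Snhg17 at 5.40 and 6.55 TPM, 2900076A07Rik at 6.33 and 5.12 TPM, AC121821.1 at 6.02 and 5.37 TPM, and Snhg18 at 5.08 and 6.00 TPM in replicates 1 and 2. The median host was at 12.90 TPM (replicate 1) and 12.19 TPM (replicate 2), close to the median of all members. Of the 40 snoRNA and scaRNA genes annotated inside members, 28 had no count in either library and 5 had 10 counts or more in both. Those without a count were mostly the shorter genes. Whether the libraries could capture such short RNAs was not tested, so the lack of counts does not show absence. Snora74a, inside AC121821.1, was the highest with 318 TPM in replicate 1 and 356 TPM in replicate 2. Snord22, inside Snhg1, had 183 TPM in replicate 1 and 201 TPM in replicate 2. Their short length raises these TPM values. In replicate 1 Snord22 had 144.6 counts against 578.4 for its host, while Snora74a had 901.3 counts against 181.6 for its host. Further snoRNA hosts of the list were no members: Zfas1 (20.08 and 19.29 TPM) and Snhg3 (13.78 and 11.60 TPM) have no lincRNA transcript, and Snhg10 was at 1.85 and 1.52 TPM.

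The miRNA hosts made up 11 members, 3 of which (Snhg20, 2900076A07Rik and AC121821.1) also hold a snoRNA or scaRNA gene. A host had a symbol of the form Mir...hg or an annotated miRNA gene wholly inside its span on its strand. That rule left out Carmn (8.52 and 7.09 TPM in replicates 1 and 2), with the RefSeq synonym Mir143hg. It also left out Gm26532 (7.46 and 5.84 TPM), which overlaps Mir24-2 on the same strand. 3110039I08Rik, the host of miR-100, let-7a-2 and miR-125b-1, had 39.68 TPM in replicate 1 and 38.71 TPM in replicate 2. Gm28653 (chr1:20669882-20684298, plus strand), the locus from which the muscle RNA linc-MD1 was described in mouse, had 30.05 TPM in replicate 1 and 33.69 TPM in replicate 2. Its scaled count was lower in replicate 1 (log2 ratio -0.09, interval -0.16 to -0.02), the opposite direction to the fast muscle markers. Slow and developmental muscle markers were higher in replicate 2 for 7 of 8 genes, and their part in the Gm28653 value was not tested.

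Dleu2, which holds the miR-15a and miR-16-1 genes, had 14.34 TPM in replicate 1 and 14.52 TPM in replicate 2. Mir99ahg had 12.66 TPM in replicate 1 and 12.88 TPM in replicate 2. The log2 ratio of Mir99ahg was -0.06, with a counting interval of -0.23 to 0.10. Lncppara had 10.52 TPM in replicate 1 and 8.16 TPM in replicate 2, and 6720427I07Rik had 5.84 TPM in replicate 1 and 4.95 TPM in replicate 2. Their intervals lay above 0, 0.15 to 0.68 for Lncppara and 0.12 to 0.40 for 6720427I07Rik, while that of the fourth let-7 host, 3110039I08Rik, held 0 like that of Mir99ahg (log2 ratio 0.01, interval -0.07 to 0.10). A930003A15Rik, with the miRNA gene Gm27883 inside, had 11.62 TPM in replicate 1 and 15.26 TPM in replicate 2. Gm27000, the Meg3 copy with Mir1906-2 inside, was the fifth highest member at 154.6 TPM (replicate 1) and 142.9 TPM (replicate 2). These values describe the host RNA: 19 of the 21 miRNA genes inside members had no count in either library.

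The list of RNAs with a described function in growth, stress or chromatin gave 4 members. RefSeq names 2900097C17Rik Norad, an RNA that binds Pumilio proteins and guards chromosome number, and the gene had 77.37 TPM in replicate 1 and 78.38 TPM in replicate 2. 1700020I14Rik is Oip5os1, known as Cyrano, which drives the decay of miR-7, and it had 37.22 TPM in replicate 1 and 33.76 TPM in replicate 2. 1810026B05Rik is Chaserr, which lies upstream of the chromatin remodeller gene Chd2 and restrains it in mouse, and it had 16.73 TPM in replicate 1 and 17.33 TPM in replicate 2. Chd2 itself had 29.39 TPM in replicate 1 and 28.47 TPM in replicate 2, and the 2 genes overlap on 1 strand. Jpx, from the X inactivation centre, was near the minimum with 5.25 TPM in replicate 1 and 5.61 TPM in replicate 2.

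Other names on that list lay under the minimum or outside the lincRNA type. Dancr (3.40 and 3.35 TPM in replicates 1 and 2), Miat (2.89 and 2.86 TPM), Ftx (2.80 and 2.79 TPM), Lncpint (2.18 and 2.39 TPM) and Pvt1 (1.59 and 2.53 TPM) were below 5 TPM. Tug1 (30.74 and 31.57 TPM) and Firre (18.92 and 18.58 TPM) have no transcript of lincRNA type in this annotation. The list of muscle RNAs once taken for noncoding gave 0 members by symbol, as linc-MD1 is not a symbol of this annotation and its locus Gm28653 was counted among the miRNA hosts. Mrln, Gm34302 and Mymx, which encode small muscle proteins, are annotated as protein-coding here, at 63.81, 18.28 and 18.04 TPM in replicate 1, against 57.68, 19.62 and 16.72 TPM in replicate 2.

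The remaining 34 members belong to no list, and several sit at the border between coding and noncoding. RefSeq types 7 of the 63 members as protein-coding. Of these, 1810058I24Rik, whose RefSeq synonym Stmp1 stands for a short transmembrane mitochondrial protein, had 55.74 TPM in replicate 1 and 55.60 TPM in replicate 2. Lsmem2, named for a leucine-rich single-pass membrane protein, had 18.48 TPM in replicate 1 and 12.77 TPM in replicate 2. Tmem250-ps had 15.51 TPM in replicate 1 and 14.77 TPM in replicate 2. For 1810058I24Rik and Tmem250-ps the libraries nearly coincided, and for Lsmem2 they did not.

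Further members of the 25 highest lay closer between the libraries than Lsmem2, though the counting interval of AI480526 left out equality (log2 ratio 0.24, interval 0.05 to 0.42). 5430431A17Rik had 59.44 TPM in replicate 1 and 57.55 TPM in replicate 2. AI480526 had 21.80 and 19.73 TPM, Gm12319 had 20.14 and 21.05 TPM, and 2310040G24Rik had 17.05 and 17.56 TPM in replicates 1 and 2. Gm12319 begins 709 bases from Eno3, the muscle form of enolase, which is transcribed from the opposite strand at 1648 TPM (replicate 1) and 1445 TPM (replicate 2). Gm10076 had 29.30 TPM in replicate 1 and 31.79 TPM in replicate 2, but 383 of its 384 bases align at 99.5% identity to Rpl41, a ribosomal protein gene with 1118 and 1249 TPM, so its reads cannot be cleanly assigned.

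Some features were set beside those of other genes, with no test. A protein-coding gene started within 1000 bases on the opposite strand for 10 of the 63 members (15.9%), against 346 of 5995 other lincRNA genes (5.77%). Besides Gm12319 these were Rmrp, Gas5, Snhg1, AI480526, 5031425E22Rik, 5930412G12Rik, Gm28651, Snhg18 and 3300002P13Rik. The 5995 include genes without counts, as 3891 of all 6058 lincRNA genes had none in either library. No share was computed for lincRNA genes of a similar level. The leading transcript of a member had a median length of 1004 bases, and 27.0% of members had a leading transcript of a single exon. The 172 other lincRNA genes of 1 TPM or more had a median of 1126 bases and 25.6% of single exon, so the members were close to them. All 5995 other lincRNA genes had a median of 949 bases and 6.89% of single exon. The 9060 protein-coding genes of 5 TPM or more had a median of 2650 bases and 2.53% of single exon.

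Between the libraries most members were nearly equal. The ratio runs replicate 1 over replicate 2 on TMM-scaled counts with 0.5 added, and its 95% Clopper-Pearson interval covers counting error only. The median absolute log2 ratio was 0.12 for the members, against 0.16 for the 17998 genes tested, those averaging 10 counts or more, and 0.13 for those averaging 100 counts or more. Of the 62 members averaging 10 counts or more, 9 differed by more than 25% (higher over lower library) in either direction (14.5%), where 26.7% of all tested genes did. Above an average of 100 counts the shares were closer: 8 of 59 members (13.6%), where 13.7% of tested genes did.

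The direction leaned to replicate 1 under this scaling. Of the 62, 46 were higher in replicate 1 (74.2%), where 49.1% of tested genes were. Among tested genes the median log2 ratio differed with count: -0.13 at 10 to 31.6 counts, 0.01 at 316 to 1000 and 0.06 above 10000. The median member had a mean count of 347, and the part of depth in the lean was not tested. The median log2 ratio of all members was 0.07, beside -0.01 for all tested genes. Another scaling shifts all genes alike: with ERCC spike-ins 29 of 63 members (46.0%) were higher in replicate 1 and the median was -0.01, when 35.4% of all tested genes were higher in replicate 1 and their median was -0.09. The direction of the members' median thus turned with the scaling. The members' median lay above that of all tested genes under both, in a comparison not matched for count. The counting interval left out equality for 22 of the 62 (35.5%), where it did so for 36.2% of tested genes, so this count is that of genes at large.

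**Figure D3:**
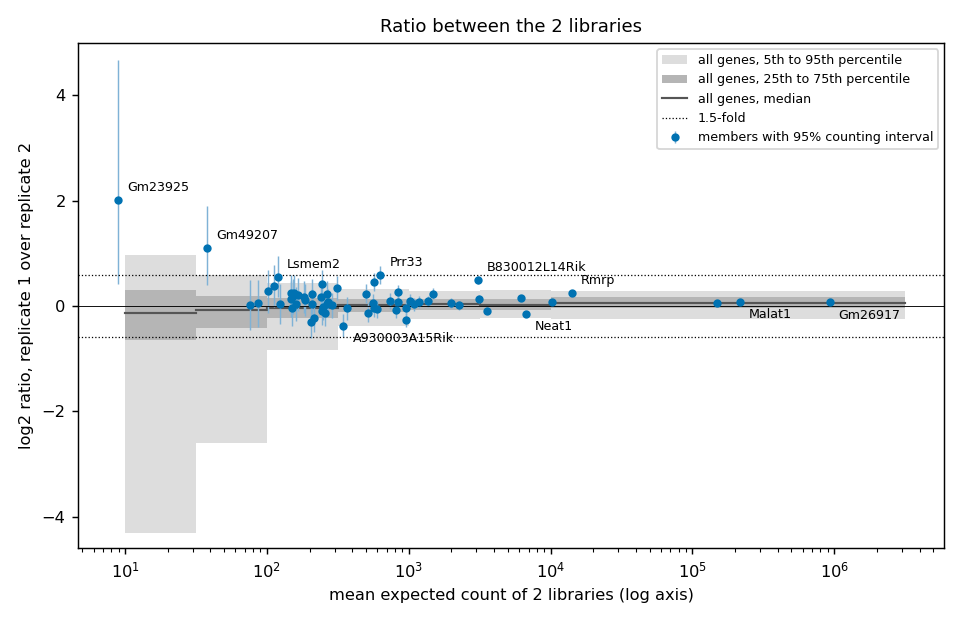
Log2 ratio of replicate 1 over replicate 2 against mean expected count (log axis); points are members with 95% counting intervals, shaded bands are percentiles of all genes in bins of count, and dotted lines mark 1.5-fold. Most members lie within the bands, and Gm23925 and Gm49207 are past the upper dotted line at low counts.

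Past 1.5-fold there was 1 of 62 members, Gm49207, where 12.7% of tested genes were past it in either direction and 3.53% were higher in replicate 1. Such shares past 1.5-fold and 2-fold were not matched for count, and 59 members average 100 counts or more. The 5th to 95th percentiles of all genes ran from -4.31 to 0.98 at 10 to 31.6 counts, against -0.38 to 0.33 at 316 to 1000. Gm49207 had 52.75 counts in replicate 1 and 22.87 counts in replicate 2, a log2 ratio of 1.11 (interval 0.39 to 1.90), and was also the only one of the 62 past 2-fold, where 6.17% of tested genes were. It is 279 bases long, 268 of them align at 99.6% identity to Ahsa1, and its read-assignment SD was 17.3% of the count in replicate 1 and 36.1% in replicate 2. Gm23925, the 1 member under a mean count of 10, had 14.70 counts in replicate 1 and 3.05 in replicate 2 (log2 ratio 2.02, interval 0.42 to 4.67). A snoRNA ID at the same place carried the same 2 counts, and the assignment SD was 61.5% and 72.8% of the count.

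Beyond Gm23925 and Gm49207, the largest ratios were those of 3 members with more counts. Prr33, named for a proline-rich protein, had 774 counts in replicate 1 and 488 in replicate 2, a log2 ratio of 0.58 (interval 0.42 to 0.75). It was past 1.5-fold with DESeq2 size factors and by the direct quantification (log2 ratios of 0.61 and 0.60). Lsmem2 had 146 counts in replicate 1 and 94 in replicate 2, a log2 ratio of 0.55 (interval 0.17 to 0.94). B830012L14Rik had 3682 counts in replicate 1 and 2468 in replicate 2, a log2 ratio of 0.50 (interval 0.42 to 0.57). All 3 were higher in replicate 1, the library in which the fast muscle markers were higher by a median log2 ratio of 0.23.

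Prr33 spans the start of Tnnt3, a fast troponin gene on the opposite strand with 4415 TPM in replicate 1 and 3727 TPM in replicate 2 and a log2 ratio of 0.26. No exon of Prr33 overlaps an exon of another gene on either strand in the annotation. B830012L14Rik stands between Rian, with a log2 ratio of 0.06, and Mirg, with 11169 counts in replicate 1, 7513 in replicate 2 and a log2 ratio of 0.49. The interval of B830012L14Rik holds the Mirg ratio and not the Rian ratio.

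The other members over 25% higher in replicate 1 were 5031425E22Rik (log2 ratio 0.45, interval 0.28 to 0.62), Lncppara (0.42), Gm26532 (0.37) and Gm28651 (0.34), where 10.2% of tested genes and 8 of 62 members were. In the other direction A930003A15Rik was over 25% higher in replicate 2, with 311.6 counts in replicate 1 and 381.7 in replicate 2 and a log2 ratio of -0.37 (interval -0.59 to -0.15), where 16.5% of tested genes were. Neither share of tested genes was matched for count. After A930003A15Rik came 5930412G12Rik (-0.31), AI506816 (-0.26), Snhg18 (-0.22) and Neat1 (-0.15). The lowest ratio of any member stood beside a median log2 ratio of -8.24 for the epidermis markers and -0.95 for the Schwann cell markers.

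Transcript use was described for the 45 members with 2 or more annotated transcripts. The leading transcript, the one with the highest percent of its gene's TPM, was the same in both libraries for 35 of them by alignment. By both quantifications it was the same for 27 of the 44 with a direct value, which Gm10076 lacked. By alignment the leading transcript held 60% or more of the gene in 17 members and under 60% in 28, with a median of 51.0%. The largest change of any transcript's percent between the libraries had a median of 5.85 points over the 45 genes. More members kept their leader between the libraries than between the quantifications. No such share was computed for all genes with 2 or more transcripts.

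**Figure D4:**
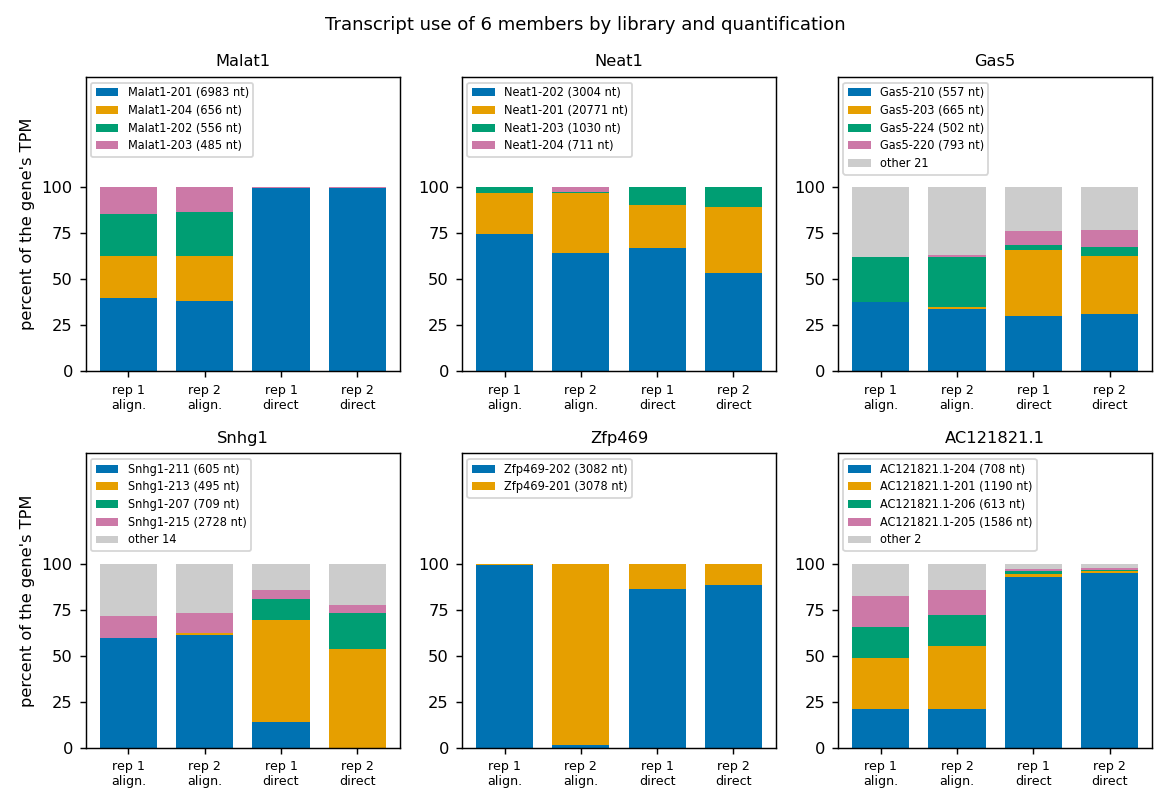
Percent of the gene's TPM by transcript for 6 members, in replicate 1 and replicate 2 by the alignment-based table and then by the direct quantification; grey holds all transcripts past the 4 highest. Zfp469 changes leader between libraries by alignment, and Gas5, Snhg1 and AC121821.1 change leader between quantifications. Malat1-201 leads by both quantifications with a far higher share by the direct one, and Neat1-201 has a higher share in replicate 2 by both.

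Malat1 showed how length enters these shares. The unspliced Malat1-201 (6983 bases) held 39.96% of the gene's TPM in replicate 1 and 38.43% in replicate 2 by alignment, and 99.7% by the direct quantification. In counts it dominated by alignment as well, with 205682 of the gene's 227152 counts in replicate 1 and 183596 of 204163 in replicate 2. The short spliced transcripts, 485 to 656 bases long, turned the remaining counts into most of the TPM. Accordingly Malat1 was one of few members with a lower level by the direct quantification, at 1661 TPM (replicate 1) and 1635 TPM (replicate 2).

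In 10 members the leader differed between the libraries, and in Zfp469 and Gm10076 nearly the whole gene moved. Zfp469-202 (3082 bases) held 99.6% of its gene in replicate 1 and 1.63% in replicate 2, with Zfp469-201 (3078 bases) taking the rest. The gene level moved little, with 5.78 TPM in replicate 1 and 6.43 TPM in replicate 2, and the direct quantification gave Zfp469-202 86.1% in replicate 1 and 88.4% in replicate 2. Gm10076-201 (384 bases) held 4.90% in replicate 1 and 99.8% in replicate 2, beside a second transcript 1 base shorter. In both genes the 2 transcripts are close in length, and their shares by alignment had no stable order between the libraries. How alike their sequences are was not measured. Smaller changes of leader were seen in 3110039I08Rik with 48 transcripts, AI480526, Lncppara and Snhg17, whose leaders each held under 60%.

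Among the 13 snoRNA hosts with 2 or more transcripts the leader differed between the quantifications in 10. It differed in 7 of the 31 other members with a direct value. The sets were not matched for number of transcripts. These hosts have from 2 (Epb41l4aos) to 25 (Gas5), and many of the other members have 2. Snhg8, AI506816 and Epb41l4aos kept their leader. In Gas5, with 25 transcripts, Gas5-210 (557 bases) led by alignment with 37.6% in replicate 1 and 34.1% in replicate 2, and Gas5-203 led by the direct quantification with a mean of 34.0%. In Snhg1, Snhg1-211 (605 bases) led by alignment with 59.7% in replicate 1 and 61.4% in replicate 2, and held a mean of 7.01% by the direct quantification, where Snhg1-213 led with 54.6%. In Snhg20, Snhg20-202 held 90.2% in replicate 1 and 88.1% in replicate 2 by alignment, and Snhg20-201 led directly with 72.4%. Snhg5, Snhg6, Snhg12, Snhg17, 1110038B12Rik, 2900076A07Rik and AC121821.1 also changed leader. Dleu2, Jpx, Mir99ahg and 1810026B05Rik had many transcripts and no leader above 33.0% of the gene by mean.

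The level itself depended on the quantification. By the direct quantification 53 members were higher and 10 lower than by alignment, 4 of the 10 being listed at 0, with a median fold of 1.66, beside 1.59 for all genes of 5 TPM or more, so the median shift was close to that of genes at large. The 3 members farthest above it hold small RNA genes. AC121821.1 (chromosome 18) had 135.1 TPM in replicate 1 and 151.2 TPM in replicate 2 directly, 25.1-fold its alignment level, nearly all of it in AC121821.1-204, which held 93.8%. Snhg20 was 6.82-fold higher and Snhg1 3.79-fold higher. In the alignment-based table the small RNA genes inside them, Snora74a, the scaRNA gene Gm26083 (44.60 TPM in replicate 1 and 37.34 TPM in replicate 2) and Snord22, had counts of their own, and in the direct quantification these 3 genes were listed at 0. Which gene those reads came from was not tested. Other hosts lay under the median fold: Snhg12, with Snora44 at 46.55 and 32.25 TPM inside, was at 1.48-fold and Snhg8 at 0.92-fold. Next after Snhg1 were Gm46430 (3.38-fold) and AC158975.2 (3.24-fold), which hold no snoRNA or miRNA gene and have copies elsewhere.

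**Figure D5:**
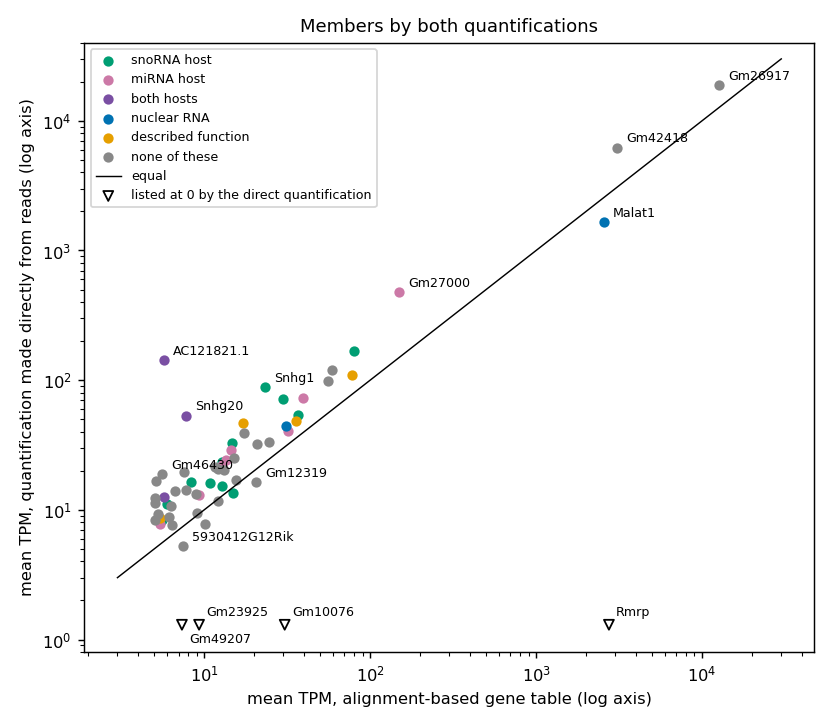
Mean TPM of each member by the quantification made directly from reads against that of the alignment-based gene table (both log axes), coloured by role list; the line marks equal values and triangles at the bottom mark 4 members listed at 0 directly. Most points lie above the line, AC121821.1 and Snhg20 lie farthest above it, and Malat1 lies below it.

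The 4 members listed at 0 by the direct quantification were Rmrp, Gm10076, Gm23925 and Gm49207. All are short and by alignment share reads with another ID or a near-identical copy. The other ID at the place of Rmrp and of Gm23925 was also listed at 0 directly. Neither ID of these pairs thus held the reads, and why was not tested. Over all members, 9 had a copy elsewhere in the annotation with at least 95% identity over 150 bases or more that covered over 50% of a transcript: 2900097C17Rik, Gm7292, Gm27000, Gm10076, Gm49207, AC158975.2, AI506816, E430024I08Rik and Gm46430. Gm7292, at 12.41 TPM (replicate 1) and 11.67 TPM (replicate 2), aligns to Norad at 99.2% identity over 2537 bases, and the assignment SD of both was 28.57 counts in replicate 1 and 28.80 in replicate 2. That was 4.86% and 5.40% of the counts of Gm7292. The assignment SD was 0 in both libraries for 35 of the 63 members, among them Gm26917, Gm42418, Malat1, Gas5 and Prr33, whose counts were not divided with another gene.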

How the data were processed

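Each library came with a gene table, a transcript table and a transcript table made directly from reads, on mm10 and GENCODE M21 gene IDs per the file headers; the programs behind them were not given in the sources used here. Deposited expected counts are estimates that divide shared reads, the deposited TPM values are scaled for length and depth, and the authors' tables give each transcript's percent of its gene. Expected counts were rounded to whole numbers only for counting intervals. Library scaling used TMM from edgeR 4.0.16 on annotated genes, with DESeq2 1.42.0 size factors, total count and ERCC counts as alternatives, and was tested on simulated data. ERCC counts were 230974 in replicate 1 and 206356 in replicate 2. A prior count of 0.5 was added before log2. Exact Clopper-Pearson intervals at 95% cover counting error only. Copies were found with BLAST 2.17.0 among GENCODE M21 transcripts, and sequences came from those and RefSeq (GRCm38.p6). RefSeq entries were matched for 46 of the 63 members by overlap at the same place.

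The members, gene lists and named genes were chosen with earlier results of these data known. Named genes were the 25 highest, all in role lists, the 3 lowest and the 3 just under 5 TPM, and the 5 with the largest ratio in each direction. Transcript use was named for members of the 25 highest and the role lists whose leading transcript held under 60% or differed. Zfp469 and Carmn, outside these rules, and members that differed by over 25% or had copies were named after their values were seen. Calls mean past a fixed fold, since 2 libraries allow no test.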

Additional observations from a re-analysis of the deposited data

How the results depend on the processing

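The count of 63 members became 145 at a minimum of 2 TPM, 37 at a minimum of 10 TPM and 140 by the quantification made directly from reads; with 1 library left out it was 61 to 67. The direct quantification put the median TPM of members at 18.7 (11.96 to 12.90 with 1 library left out), their sum at 28932 TPM and their share of counts at 5.11%. Without Gm26917, the highest member, the sum was 9513 TPM and the share 1.298%. The number of members past 1.5-fold, 2 when Gm23925 is counted beside Gm49207, was 3 with DESeq2 size factors, where Prr33 joined them, 10 past a 25% difference and 0 at a mean count of 100 or more. By the direct quantification it was 1: Prr33 alone passed, and Gm23925 and Gm49207 were listed at 0. The median log2 ratio of members, 0.072, has no spread between replicates to be set against. It was 0.096 with DESeq2 size factors, 0.027 with total count scaling, -0.0087 with ERCC scaling, 0.088 by the direct quantification and 0.072 with a prior count of 0 or 2. Members with the same leading transcript numbered 34 to 39 between libraries and 22 to 28 between quantifications. No paired analysis was possible because there is 1 group. Depth limits the 1 member under a mean count of 10, and 59 of 63 have 100 or more.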
